A study of Mus musculus with 3 samples.

Results

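The genes described here are the 3 D-type cyclins (Ccnd1, Ccnd2 and Ccnd3), the kinases Cdk4, Cdk6 and Cdk2, and the retinoblastoma gene Rb1. These 7 genes were taken as a named list from the 21670 protein-coding genes that were counted, and the rule that lists them uses no measured value. The data come from wild-type C57BL/6 mice (C57BL/6J in the methods of the study), females 8 weeks old, whose long-term HSCs were sorted from c-Kit-enriched bone marrow as LSK CD150+CD48−CD34− cells. No treatment is named for them. LSK stands for cells that lack lineage markers and carry Sca-1 and c-Kit. The cells went through DOGMA-seq, which reads open chromatin (ATAC), poly(A) RNA and antibody tags from the same cells, and gave 1 ATAC, 1 RNA and 1 antibody-tag library from 1 preparation. The ATAC library is used here, together with the RNA count of each cell. With 1 library there are no replicates, so no test was made. The intervals below are exact 95% intervals that cover counting error only, and whether another preparation would give the same values was not measured.

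The library held 42000180 fragments over 605049 barcodes, of which 3757 were called as cells. The 3108 cells with more than 3000 fragments in peaks were kept. Together they gave 37137164 fragments on chromosomes 1 to 19 and X, with a median of 11442 per cell and a range of 3970 to 194134. Doublets were not removed. Of 8 HSC marker promoters, 5 were open (defined below), near the 55.6% of all protein-coding promoters that were. Among them were Hlf with 1700 fragments, Kit with 1030, Mecom with 522 and Procr with 174. The promoters of the sort marker genes Ly6a (Sca-1) and Slamf1 (CD150) held 32 and 99 fragments at the start used here and that of Tek 112, and none of these 3 was open. Open promoters numbered 0 of 4 for T cells, 0 of 4 for granulocytes, 1 of 4 for B cells, 1 of 4 for erythroid cells, 2 of 4 for stroma and endothelium, and 4 of 4 for megakaryocytes, where counts ran from 121 to 1001. The part that cells of other kinds may have in the values below was not tested.

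As background, D-type cyclins are made when growth signals reach a resting cell. They bind Cdk4 or Cdk6, and the active kinase adds phosphate to the retinoblastoma protein, which then lets go of E2F factors, so that genes for DNA replication are switched on. Cdk2, with cyclins E and A, carries this step on into S phase. Most long-term HSCs rest outside the cycle, and blood formation in the mouse embryo fails when all D cyclins, or both Cdk4 and Cdk6, are deleted. ATAC fragments show where chromatin can be cut by a transposase. They measure neither RNA nor protein.

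Each fragment was placed by its midpoint in bins of 500 bp. A bin was called open at 105 fragments or more, the 99th percentile of all bins, against a median of 1 and a mean of 7.06 fragments. The promoter was the 1000 bp centred on the main annotated start. It was called open when any open bin overlapped it, even in part, so a promoter with fewer than 105 fragments can be open, as that of the stroma marker Col1a1 was with 49. A bin was called distal when all of it lay over 1000 bp from every annotated protein-coding start, and adjacent open distal bins inside the gene body or the 50 kb either side made a distal site. The genome build is mm10 (GRCm38) throughout. Of all bins, 1.01% were open, and of distal bins 0.492%.

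All 7 promoters were open, against 55.6% of protein-coding promoters, and 6 of the 7 genes had a distal site in their window, against 65.4% of protein-coding genes. The D cyclins and the other 4 genes differed in where their fragments lay. At Ccnd1, Ccnd2 and Ccnd3, open distal bins held 78.3%, 67.4% and 94.6% of the fragments counted at promoter and distal bins together. At Cdk4, Cdk2, Rb1 and Cdk6 that share was 35.1%, 22.8%, 19.5% and 0%. These 4 shares moved widely with the way of counting, from 0% to 48.7%, 35.7%, 55.8% and 48.3%, and were all 0% with sites nearest to the gene's own start. The lowest D cyclin (Ccnd2, interval 65.8% to 68.9%) lay above the highest of the others (Cdk4, 33.9% to 36.4%), and this order was the same in each of the 17 alternative ways of counting that were run. The median over the 16695 protein-coding genes with at least 100 such fragments was 56.9%, so Ccnd1, Ccnd2 and Ccnd3 lay above it and the other 4 below. Shares as high as those of the D cyclins were common, since 34.7% of these genes reached that of Ccnd1, 42.8% that of Ccnd2 and 19.1% that of Ccnd3. Open runs at other starts of the same gene entered neither the promoter nor the distal count. They held 3870 fragments at Ccnd3, 1735 at Ccnd2, 1009 at Cdk6 and 209 at Rb1. No alternative counted all of them as promoter, which would lower the shares of Ccnd2, Ccnd3 and Rb1.

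**Figure D1:**
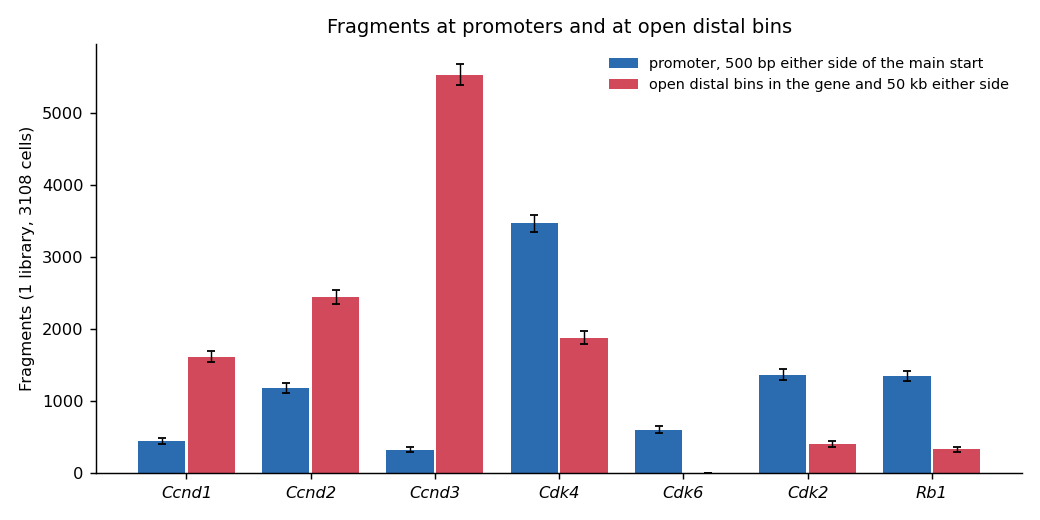
Fragments of 3108 cells at the promoter (blue, 500 bp either side of the main start) and in open distal bins of the window (red) for each gene; error bars are exact 95% Poisson intervals. The red bar is the taller one at the 3 D cyclins, from 1613 fragments at Ccnd1 to 5522 at Ccnd3, and the blue bar at Cdk4, Cdk6, Cdk2 and Rb1.

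The sequences below are those of the strongest distal sites of the D cyclins, which hold much of the distal signal, and of promoters that are compared further on. Each distal entry is the 300 bp with the most fragment midpoints inside the site, read from the RefSeq genome GRCm38.p6 on the plus strand. Each promoter entry is the 250 bp before a start in the RefSeq promoter table of the same build, on the strand of the gene. That table holds 4 of the 7 genes, with 2 entries for Ccnd3, and not Ccnd1, Ccnd2 or Rb1. Capitals mark matches, on either strand, to 12 short motifs: E2F TTTNNCGC, CRE TGACGTCA, SP/KLF GGGCGG, NFY CCAAT, E-box CACGTG, AP-1 TGANTCA, RUNX TGTGGT, the GATA motif AGATAA, ETS CGGAAG, STAT TTCNNNGAA, MEIS TGACAG and the TATA box, TATAAA. Matches can overlap, and a match is a run of letters, not a bound site.
Ccnd1 distal site, chr7:144937601-144937900, intron 2 and the edge of exon 2: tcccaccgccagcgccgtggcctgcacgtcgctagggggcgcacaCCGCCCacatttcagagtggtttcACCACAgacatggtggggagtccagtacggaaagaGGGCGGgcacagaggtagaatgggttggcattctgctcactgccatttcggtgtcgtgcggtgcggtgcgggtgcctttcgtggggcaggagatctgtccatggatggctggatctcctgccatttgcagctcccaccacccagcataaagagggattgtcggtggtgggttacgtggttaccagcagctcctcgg
Ccnd2 distal site, chr6:127147751-127148050, intron 2: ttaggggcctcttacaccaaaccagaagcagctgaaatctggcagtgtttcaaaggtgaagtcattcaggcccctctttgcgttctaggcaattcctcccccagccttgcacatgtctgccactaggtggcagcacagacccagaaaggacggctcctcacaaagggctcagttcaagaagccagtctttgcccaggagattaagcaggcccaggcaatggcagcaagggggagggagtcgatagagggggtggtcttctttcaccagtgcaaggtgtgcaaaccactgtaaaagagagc
Ccnd3 distal site, chr17:47508051-47508350, intron 1: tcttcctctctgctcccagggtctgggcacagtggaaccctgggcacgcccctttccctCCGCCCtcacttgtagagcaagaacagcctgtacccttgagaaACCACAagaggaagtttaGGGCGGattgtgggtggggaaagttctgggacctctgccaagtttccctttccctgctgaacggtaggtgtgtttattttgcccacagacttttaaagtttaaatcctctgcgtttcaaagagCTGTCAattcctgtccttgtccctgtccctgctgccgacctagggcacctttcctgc
Ccnd3 distal site, chr17:47511151-47511450, intron 1: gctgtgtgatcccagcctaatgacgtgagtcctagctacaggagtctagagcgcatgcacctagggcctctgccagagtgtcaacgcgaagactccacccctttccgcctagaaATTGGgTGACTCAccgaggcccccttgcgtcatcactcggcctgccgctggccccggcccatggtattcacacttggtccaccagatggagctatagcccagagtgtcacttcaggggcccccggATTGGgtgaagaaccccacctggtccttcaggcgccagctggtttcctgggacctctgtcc
Ccnd3 promoter, upstream start, chr17:47504801-47505050: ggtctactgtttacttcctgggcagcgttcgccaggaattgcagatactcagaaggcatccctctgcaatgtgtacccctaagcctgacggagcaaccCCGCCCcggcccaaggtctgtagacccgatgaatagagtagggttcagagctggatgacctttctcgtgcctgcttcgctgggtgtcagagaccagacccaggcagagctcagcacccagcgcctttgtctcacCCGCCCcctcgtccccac
Ccnd3 promoter, downstream start, chr17:47593217-47593466: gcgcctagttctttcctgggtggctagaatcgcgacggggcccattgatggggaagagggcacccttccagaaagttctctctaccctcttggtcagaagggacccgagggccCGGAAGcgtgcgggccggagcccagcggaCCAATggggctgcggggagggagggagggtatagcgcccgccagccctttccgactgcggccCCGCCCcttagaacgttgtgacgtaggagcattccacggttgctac
Cdk4 promoter, chr10:127063285-127063534: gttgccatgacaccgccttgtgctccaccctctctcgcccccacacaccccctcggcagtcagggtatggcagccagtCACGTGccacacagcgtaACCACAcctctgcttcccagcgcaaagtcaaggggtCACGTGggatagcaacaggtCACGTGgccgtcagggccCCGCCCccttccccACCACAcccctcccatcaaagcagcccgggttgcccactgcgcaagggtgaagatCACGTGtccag
Cdk6 promoter, chr5:3343643-3343892: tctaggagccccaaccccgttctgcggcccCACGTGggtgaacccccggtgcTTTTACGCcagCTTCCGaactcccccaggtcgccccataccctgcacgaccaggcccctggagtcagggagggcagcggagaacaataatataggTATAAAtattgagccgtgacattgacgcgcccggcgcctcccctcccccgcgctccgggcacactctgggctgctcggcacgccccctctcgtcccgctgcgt

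The Ccnd3 window at 47511151 held 1373 fragments and matched AP-1 at 1 place and NFY at 2, while the one at 47508051 held 785 fragments and matched SP/KLF, RUNX and MEIS. The Ccnd1 window held 554 fragments, with SP/KLF and RUNX matches. The Ccnd2 window held 689 fragments and none of the 12 motifs. Among 300-bp windows made in the same way for 19139 open distal sites of the genome, 11.8% matched AP-1, 28.6% NFY, 17.6% SP/KLF, 29.1% RUNX and 20.2% MEIS. Of the 13 distal sites of the D cyclins that lay nearest to their own start, 5 matched SP/KLF, 4 NFY, 4 RUNX, 2 E2F, and 1 each CRE, E-box, AP-1, GATA, STAT and MEIS, with none for ETS and TATA. The shares over all sites for the motifs not yet given were 4.07% for E2F, 0.925% for CRE, 6.75% for E-box, 14.2% for GATA, 11% for ETS, 8.48% for STAT and 10.4% for TATA.

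Ccnd1 encodes cyclin D1. The gene lies on the minus strand of chromosome 7 (144929931 to 144939925) and is the most compact of the D cyclins here, 9.995 kb long with a single annotated coding start. Its promoter held 447 fragments (407 to 490), and 39.2% of protein-coding promoters held as many. A fragment was seen there in 12.6% of cells (11.4% to 13.8%). The strongest site of the gene was not the promoter. It lay 2.12 kb downstream of the start at chr7:144937501-144938500, with 766 fragments (713 to 822) in 20.7% of cells, and its top bin of 650 fragments spans part of intron 2 and 114 bp of exon 2. At 50-bp resolution the highest point was 240 fragments at 2225 bp downstream, against 74 at 25 bp downstream of the start itself. This site was among the upper 5.22% of open distal bins of the genome. A noncoding Ccnd1 transcript starts within 1000 bp of it, and when starts of every biotype were kept out it no longer counted as distal, which left 3 sites with 847 fragments.

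Upstream of Ccnd1, intergenic sites at 1.88 kb and 3.38 kb held 217 and 266 fragments. The other site, 32.6 kb downstream with 364 fragments, lies in an exon of the noncoding gene Gm39119 and is nearest to a start of LTO1, so its link to Ccnd1 was not measured. The 3 sites nearest to the Ccnd1 start held 1249 fragments. Without the farther one the distal share was 73.6% (71.5% to 75.7%). When distal meant over 2000 bp from a start, neither the 766-fragment nor the 217-fragment site counted any more, and the share was 58.5%.

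Ccnd2 encodes cyclin D2 and lies on the minus strand of chromosome 6 (127125162 to 127152193). Its promoter held 1181 fragments (1115 to 1250), 2.64-fold more than that of Ccnd1 (2.37 to 2.95), and 19.9% of protein-coding promoters held as many. A fragment was seen there in 28.4% of cells (26.9% to 30.1%). The promoter was part of the broadest open stretch at a main start among the D cyclins, 3500 bp without a gap, against 500 bp at Ccnd1 and 1000 bp at the upstream start of Ccnd3. Within it the profile had separate summits, 206 fragments per 50 bp at 25 bp upstream of the main start and 187 at 1475 bp upstream. The second lies near the start of the transcript Ccnd2-206, 1.133 kb upstream, where a window of the same width held 2059 fragments in 42.6% of cells. Ccnd2-206 is outside the GENCODE basic set. A promoter taken there gave a Ccnd2 to Ccnd1 ratio of 4.61 in place of 2.64 and a distal share of Ccnd2 of 54.3%.

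All 4 distal sites of Ccnd2 were nearest to a start of Ccnd2 itself. The strongest was the intron 2 site printed above, in chr6:127147501-127148500, with 825 fragments (770 to 883) in 22.1% of cells. A site 4.19 kb upstream held 815 fragments (760 to 873) and lies in an intron of the antisense gene 9330179D12Rik. The intron 3 site, 8.81 kb downstream, was wider (1500 bp) and held 643 fragments, and the site in intron 1 held 159. This intron 1 site is the downstream end of the 3500-bp open stretch at the main start, so it is described under both. The strongest Ccnd2 site and the strongest Ccnd1 site had intervals that overlapped (770 to 883 against 713 to 822). Both intron 1 and intron 2 sites lie within 1000 bp of noncoding starts, and when starts of every biotype were kept out of the distal bins, 2 sites remained and the share was 55.2%.

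Ccnd3 encodes cyclin D3. The gene lies on the plus strand of chromosome 17 (47505051 to 47599691) and spans 94.641 kb, most of it intron 1. Its main upstream start had the lowest promoter count of the 7 genes, 318 fragments (284 to 355) in 8.53% of cells, or 0.711 times the count at Ccnd1 (0.614 to 0.823), and 45.1% of protein-coding promoters held as many. Another principal start, 88.419 kb downstream at 47593470, held 1232 fragments (1164 to 1303) in 29.5% of cells. That is 3.87-fold more than at the upstream start (3.42 to 4.40), and the Ccnd2 count was 0.959 times this one (0.884 to 1.04), an interval that includes 1. The order of Ccnd3 and Ccnd1 therefore turned on which start was counted, since the downstream start had 2.76 times the count of Ccnd1 (2.47 to 3.08). The 2 starts differed in the printed sequence as well. The 250 bp before the upstream start matched SP/KLF only, at 2 places, and the 250 bp before the downstream start matched SP/KLF, NFY and ETS at 1 place each. Over 32609 RefSeq promoters, 33% matched SP/KLF, 34.0% NFY and 13.7% ETS.

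The downstream start sits in an open run of 3500 bp (chr17:47593001-47596500) that held 3559 fragments in 59.2% of cells. Its top bin, with 1496 fragments, is in intron 4 of the principal transcript Ccnd3-202, near the start of Ccnd3-208, where 1719 fragments fell within 500 bp. None of this run counted as distal or as promoter at the upstream start. Ccnd3 even so had the most distal sites of the 7 genes, 12, with 5522 fragments, against 4 sites each for Ccnd1 (1613) and Ccnd2 (2442). Its distal total was 2.26-fold that of Ccnd2 (2.16 to 2.37) and 3.42-fold that of Ccnd1 (3.24 to 3.62). Because the Ccnd3 window is longer, the difference was smaller per length, 2839 fragments per 100 kb of window against 1923 at Ccnd2 and 1466 at Ccnd1. The totals, and so the folds between them, moved with the way of counting. With distal over 2000 bp from a start they were 4978 at Ccnd3, 2283 at Ccnd2 and 630 at Ccnd1. With starts of every biotype kept out they were 5522, 1458 and 847. With sites nearest to the gene's own start they were 3980, 2442 and 1249.

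The strongest distal site of any member lay in intron 1 of Ccnd3, 6.2 kb downstream of the upstream start, at chr17:47511001-47512000. It held 1795 fragments (1713 to 1880) in 41.5% of cells (39.7% to 43.2%). Its top bin of 1602 fragments ranked among the upper 0.648% of open distal bins, and it alone held 32.5% of the distal fragments of Ccnd3. The next, at chr17:47507501-47508500, held 1177 fragments (1111 to 1246) in 28.1% of cells, and another, 16.7 kb downstream at chr17:47521501-47522000, held 614 in 15.7%. Each of these 3 sites held more fragments than the upstream promoter. Smaller intron 1 sites, 4.7 kb and 22.7 kb downstream, held 136 and 149 fragments.

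The remaining Ccnd3 sites lay outside the gene. Of the 12 sites, 6 with 3980 fragments were nearest to a Ccnd3 start, including 1 in an exon of Bysl with 109 fragments. The other 6, with 1542 fragments, were nearest to Taf8, Med20 or Usp49. With the nearest sites alone the distal share was 92.6% (91.8% to 93.4%), and with the downstream start as the promoter it was 81.8%. Whether any site acts on Ccnd3 was not measured.

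**Figure D2:**
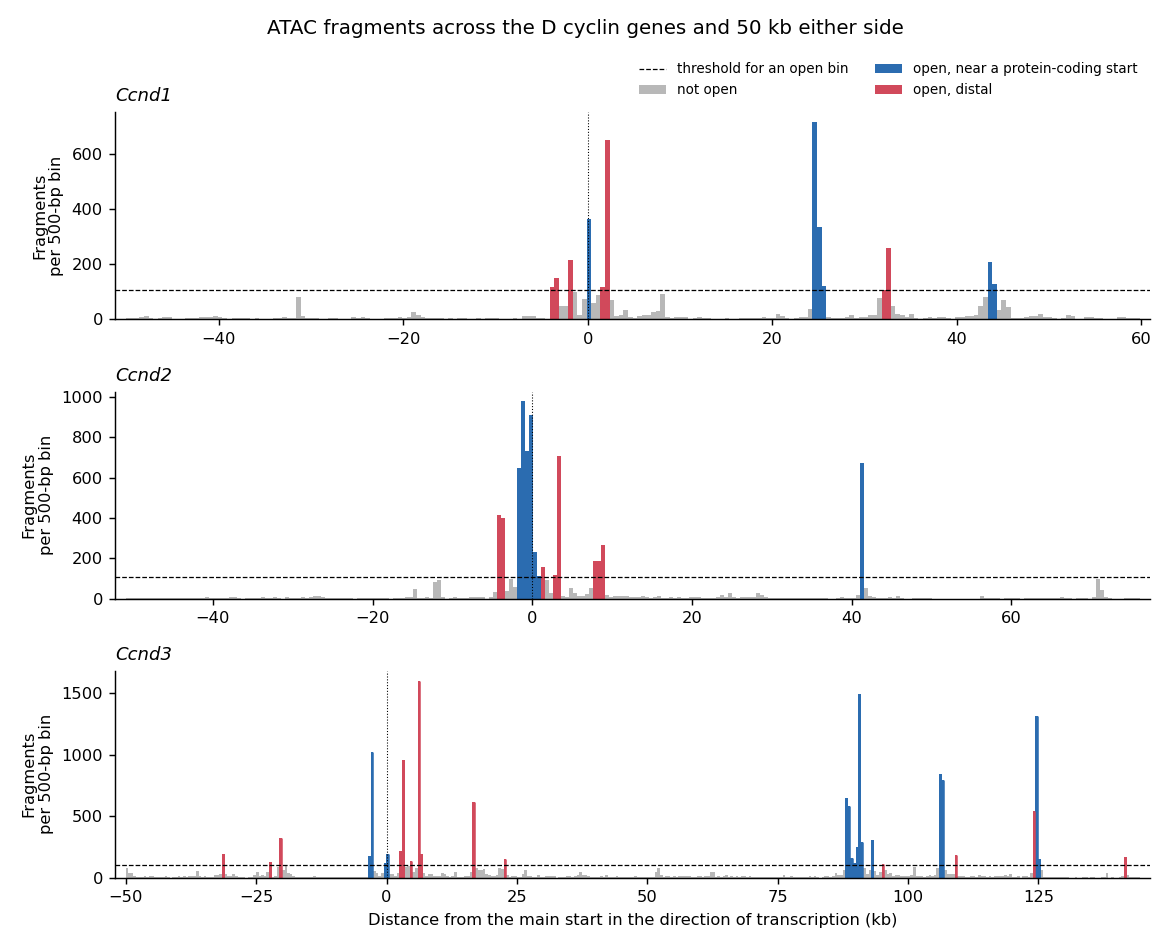
Fragments per 500-bp bin across each D cyclin gene and 50 kb either side, against distance in kb from the main start in the direction of transcription; bars are grey below the threshold of 105 fragments (dashed), blue where open near a protein-coding start and red where open and distal. Red bars of Ccnd1 and Ccnd2 gather within 10 kb of the start apart from 1 site at 32.6 kb, and the tallest bar of Ccnd3 stands 6.2 kb inside the gene, far above the bins at distance 0.

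Cdk4, a catalytic partner of the D cyclins, had the strongest promoter of the members. It held 3464 fragments (3350 to 3581), and only 2.05% of protein-coding promoters held as many. A fragment was seen in 63.7% of cells (62.0% to 65.4%), and 11.4% of cells had more than 2. The gene is short (4.387 kb, plus strand of chromosome 10, 127063534 to 127067920), and the promoter count was 2.93-fold that of Ccnd2 (2.74 to 3.14) and 2.54-fold that of Cdk2 (2.38 to 2.70). The ratio to Ccnd2 fell to 1.78 with promoters of 1000 bp either side and to 1.70 with the coding start that has the most fragments. The profile had 1 summit, 572 fragments per 50 bp at 125 bp upstream. The printed 250 bp before the start held 4 CACGTG E-boxes, 2 RUNX matches and 1 SP/KLF match, where 6.06% of RefSeq promoters held any E-box match and 14% any RUNX match. Cdk4 had 4 distal sites with 1877 fragments, and none was nearest to a Cdk4 start. The largest, 11.7 kb downstream with 1193 fragments, lies at an exon of Agap2 and within 1000 bp of a noncoding Agap2 start. With starts of every biotype kept out it no longer counted as distal, and 684 distal fragments were left. The others are nearest to Cyp27b1, March9 and Os9. The count of Cdk4 sites also rose, to 10 with 3287 fragments with open bins at the 98th percentile and to 10 with 3016 with 100 kb either side.

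Cdk6, the other partner of the D cyclins, had 597 promoter fragments (550 to 647) in 15.5% of cells. The Cdk4 count was 5.80-fold higher (5.32 to 6.34), a ratio that was 13.8 with fragments under 150 bp only and 3.32 with promoters of 1000 bp either side. The Ccnd1 count was 0.749 times that of Cdk6 (0.661 to 0.848), which reversed to 1.55 with the short fragments and was 0.479 with the wider promoters, where the Cdk6 count was 1092. The open stretch at its start was the broadest of the 7 genes, 4000 bp. Its highest point was 107 fragments per 50 bp at 675 bp downstream of the main start. This was the lowest maximum of the 7 profiles drawn within 3 kb of a main start. The Ccnd3 maximum among these, 243, lies 2875 bp upstream in the run at Taf8, and the profile reached 42 at the Ccnd3 start itself. Upstream of the Cdk6 start the highest point was 48 fragments, at 2525 bp. Another principal start, 0.419 kb downstream, held 784 fragments. The printed 250 bp matched E2F, ETS, E-box and TATA at 1 place each, against 4.31%, 13.7%, 6.06% and 12.4% of RefSeq promoters.

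No distal site was called in the 289.5 kb window of Cdk6 (chromosome 5, gene body 3341485 to 3531008, plus strand). The count of 0 turned on the threshold, as the highest distal bins below it held 104 and 96 fragments against the 105 required. The upstream part of the open stretch counts as a start because of an upstream transcript that is outside the GENCODE basic set. With starts of the basic set alone kept out, it became 1 distal site and the share of Cdk6 was 48.3%. With fragments under 150 bp only, 2 sites were called and the share was 42.4%, and with open bins at the 98th percentile 3 sites gave 30.1%.

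Cdk2, the kinase that pairs with cyclins E and A, had 1365 promoter fragments (1294 to 1439) in 31.7% of cells. Its promoter is shared, since a start of Pmel lies in the same open run of 1000 bp on chromosome 10 (gene body 128697939 to 128705031, minus strand), and the fragments cannot be divided between the genes. Of the 250 bp before its RefSeq start, SP/KLF matched at 5 places and E2F, NFY and ETS at 1 each. Its 2 distal sites held 150 and 253 fragments and were nearest to Pmel and Dgka.

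Rb1 encodes the retinoblastoma protein, the main substrate of cyclin D kinases. Its promoter held 1345 fragments (1274 to 1419) in 30.5% of cells, 0.985 times the Cdk2 count (0.913 to 1.06), an interval that includes 1. The gene spans 142.15 kb on the minus strand of chromosome 14 (73183673 to 73325822). Inside the gene no distal site was called on the grid used. The single distal site of its window, with 326 fragments at chr14:73179001-73179500, lies 146.571 kb from the Rb1 start, beyond the end of the gene and in an intron of Rcbtb2. A run of 209 fragments in intron 1, centred 1.071 kb downstream of the start, was too near to the start to count as distal. The count of 1 site turned on the grid and the threshold, since 4 sites and a share of 33.0% were found on a grid moved by 250 bp, 4 sites and 37.0% with fragments under 150 bp, and 6 sites and 44.4% with open bins at the 98th percentile. With the window widened to 100 kb either side the share of Rb1 was 55.8%, the highest of the 17 alternatives.

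**Figure D3:**
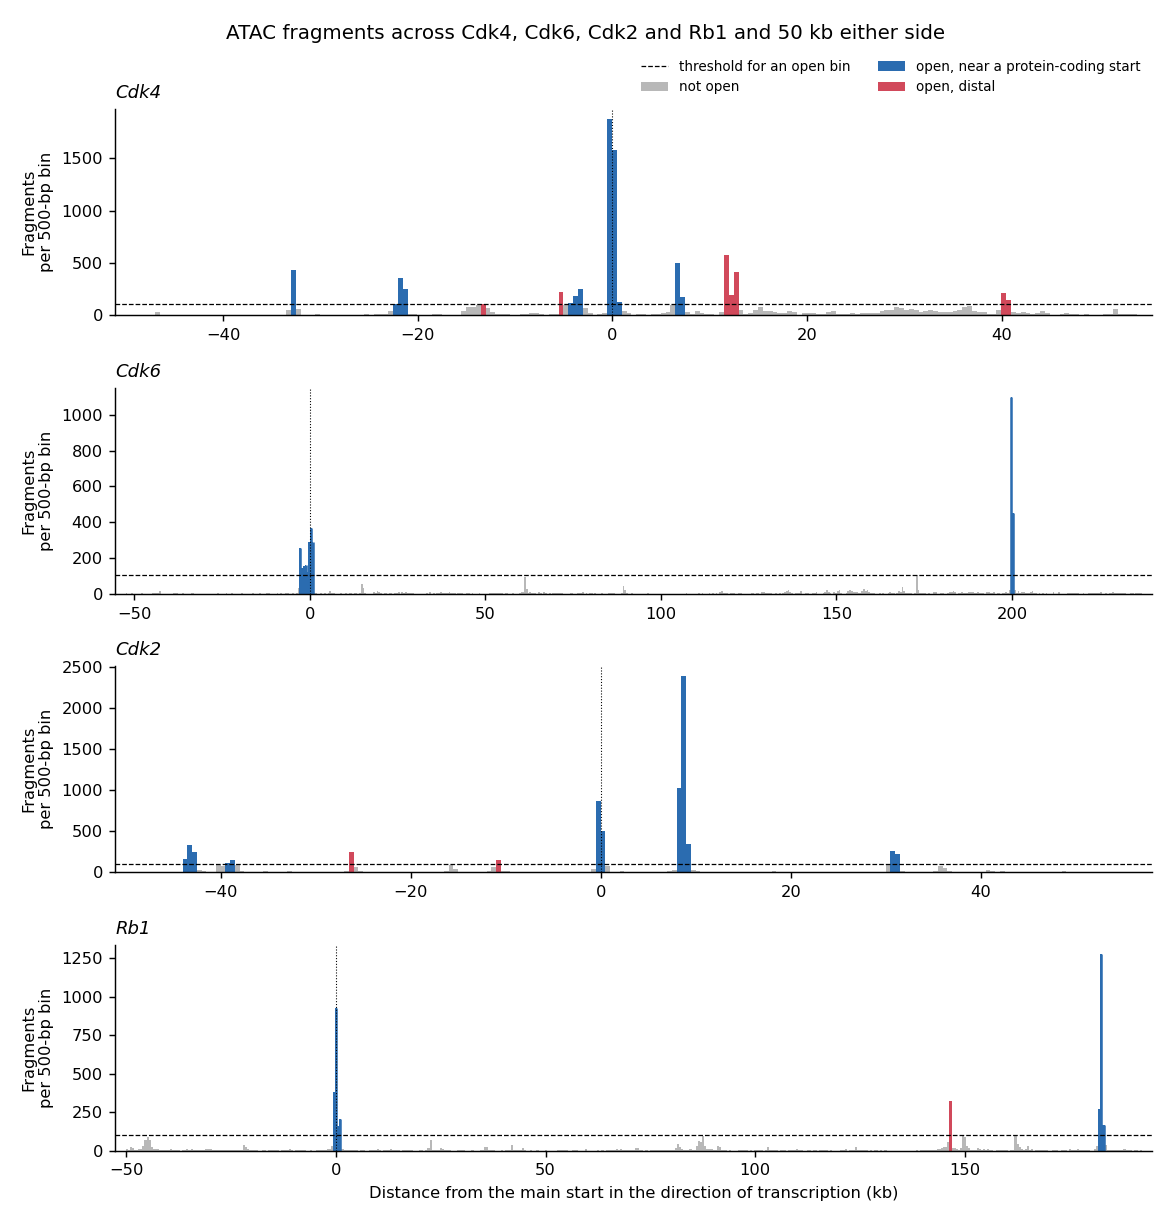
Fragments per 500-bp bin across Cdk4, Cdk6, Cdk2 and Rb1 and 50 kb either side, drawn as for the D cyclins. The tallest bar of the Cdk4 panel is its own promoter, whereas in the Cdk6, Cdk2 and Rb1 panels a promoter of a neighbouring gene stands higher, and the rest of the Cdk6 and Rb1 gene bodies, away from their starts, stays below the threshold of 105 fragments.

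By promoter count the members thus stood in the order Cdk4 (3464), Cdk2 (1365), Rb1 (1345), Ccnd2 (1181), Cdk6 (597), Ccnd1 (447) and Ccnd3 at its upstream start (318). Of these neighbours Cdk2 and Rb1 did not differ beyond counting error. Cdk2 exceeded Ccnd2 by 1.16-fold (1.07 to 1.25) and Rb1 exceeded it by 1.14-fold (1.05 to 1.23), but parts of the order turned on how promoters were counted. With promoters of 1000 bp either side Ccnd2 held 2031 fragments, above Rb1 (1611) and Cdk2 (1485), and it also stood above both when the coding start with the most fragments was taken for each gene. With fragments under 150 bp only, Ccnd1 (270) stood above Cdk6 (174). The median of all protein-coding promoters was 224 fragments, below each of the 7.

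**Figure D4:**
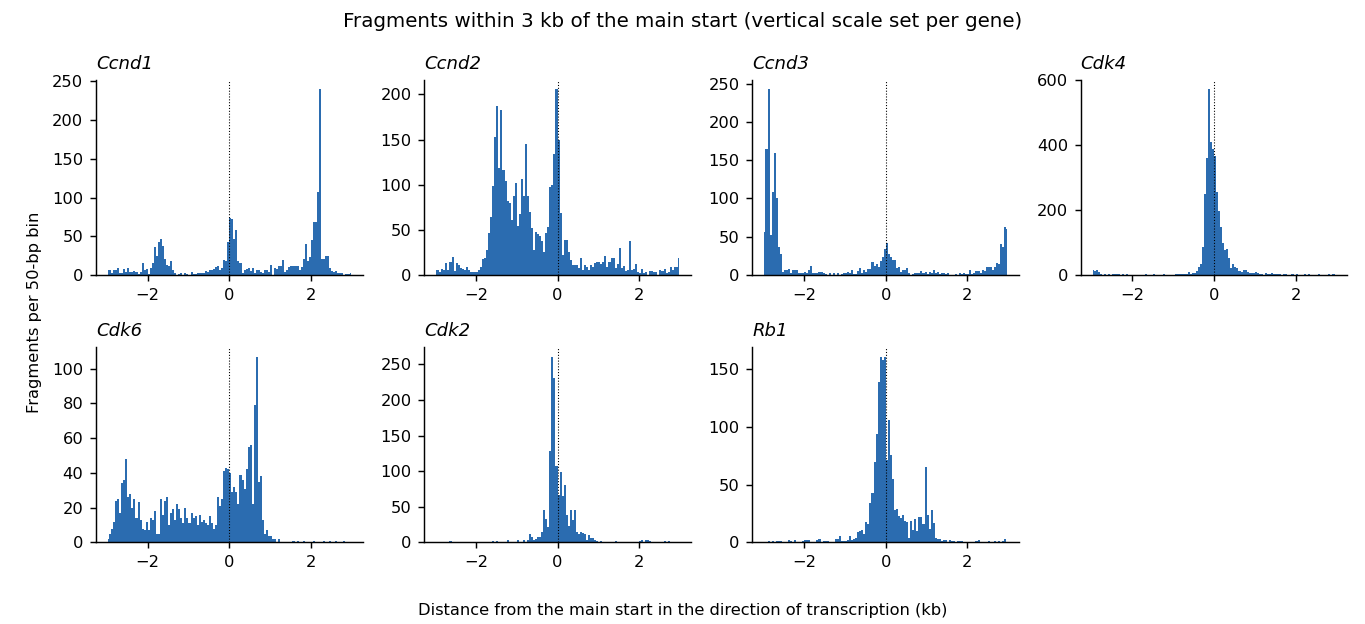
Fragments per 50-bp bin within 3 kb of the main start of each gene, against distance in kb in the direction of transcription; the vertical scale is set per gene. Cdk4, Cdk2 and Rb1 peak just upstream of the start (572, 261 and 161 fragments), Ccnd2 has further summits to about 1.5 kb upstream, Cdk6 is spread from upstream to downstream, and Ccnd1 is highest 2225 bp downstream.

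Fragment length separated Cdk6 from the other promoters. Fragments under 150 bp, which are too short to span a nucleosome, made up 46.1% of all fragments of these cells. At the promoters of Cdk4, Cdk2, Ccnd2, Ccnd1 and Rb1 they made up 69.1%, 63.2%, 60.5%, 60.4% and 56.9%. At the upstream start of Ccnd3 the share was 42.8% (37.3% to 48.4%), and at Cdk6 it was 29.1% (25.5% to 33%), below that of the library. The Cdk6 run from 3344501 to 3345000, just downstream, held 290 fragments of which 70.7% were short (65.1% to 75.9%), whereas the upstream run from 3341001 to 3343000 held 719 fragments of which 34.2% were short (30.7% to 37.8%). Among distal sites, the strongest of Ccnd3 had 72.4% short fragments (70.3% to 74.5%) and the intron 2 site of Ccnd2 70.7% (67.4% to 73.8%). The intron 3 site of Ccnd2 had 38.1% (34.3% to 42.0%).

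**Figure D5:**
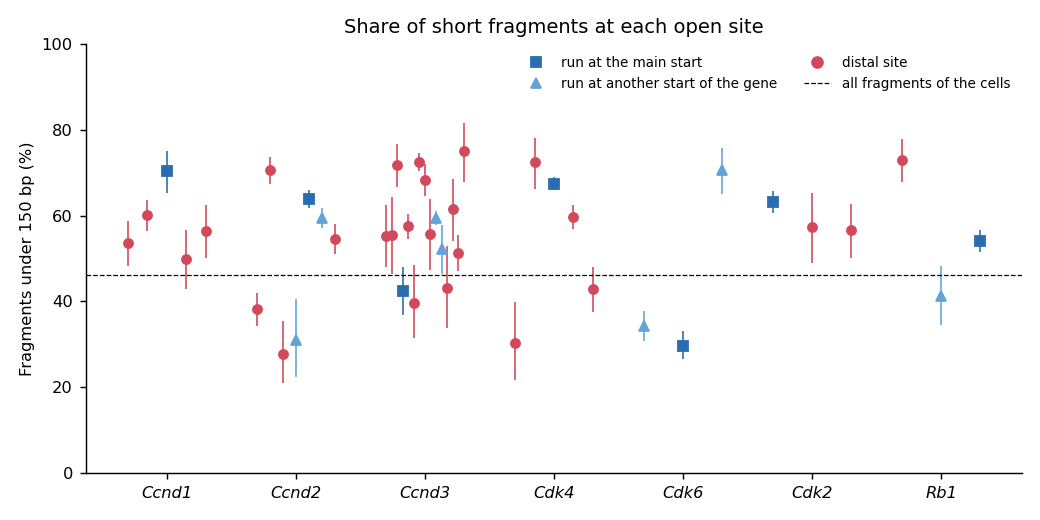
Share of fragments under 150 bp (%) at each open site of each gene, with exact 95% binomial intervals; squares are the run at the main start, triangles runs at another start of the same gene, circles distal sites, and the dashed line is the share over all fragments (46.1%). The main start of Cdk6 lies at 29.7%, below the line, with triangles of the same gene at 34.2% and 70.7%, and the distal sites of Ccnd3 range from 39.7% to 75.1%.

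Single cells gave few fragments at any 1 promoter, so most cells without a fragment cannot be read as closed. At the Cdk4 promoter 36.3% of cells had none, and at the upstream Ccnd3 promoter 91.5%. Counting the D cyclins together, 1811 cells (58.3%) had no fragment at any of the 3 promoters, 1069 had a fragment at 1 of them, 213 at 2 and 15 at all 3. With the distal sites included, 187 cells (6.02%) had none, 817 had 1 D cyclin, 1373 had 2 and 731 (23.5%) had all 3. Depth moved with these shares. From the shallowest to the deepest tertile of cells, the share with a Ccnd2 promoter fragment went from 21.7% to 35.9%, whereas the rate per 1000000 fragments went from 35.6 (31.6 to 40.0) to 30.6 (28.1 to 33.4). At Cdk4 this rate went from 106 (98.7 to 113) to 81.3 (77.1 to 85.7). At Ccnd3 it went from 7.45 (5.69 to 9.59) to 9.34 (7.95 to 10.9) and at Cdk6 from 14.4 (11.9 to 17.3) to 16.9 (15 to 18.9). Cdk4 was the 1 member whose intervals in the shallowest and deepest tertiles did not overlap.

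Cells with a distal fragment of a gene were compared with cells without one at similar depth. In the deepest tertile 14.1% of cells (11.9% to 16.5%) with a Ccnd3 distal fragment also had a fragment at its upstream promoter, against 5.71% (2.50% to 10.9%) of cells without. In the middle tertile the shares were 8.48% (6.64% to 10.6%) and 5.13% (2.68% to 8.79%), with intervals that overlapped, and in the shallowest 4.34% (2.93% to 6.18%) and 5.98% (3.78% to 8.91%). The intervals of Ccnd3 were thus apart in 1 tertile of 3. For Ccnd1 and Ccnd2 the intervals of cells with and without a distal fragment overlapped in every tertile. Depth still varies within a tertile, and its part in the Ccnd3 values was not tested.

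Cells were also divided by RNA content at similar ATAC depth, giving 1558 RNA-rich cells (median 4609.5 UMIs) and 1550 RNA-poor cells (median 3140.5 UMIs). These are cells of 1 library and not replicates. Per 1000000 fragments, the distal sites of Ccnd3 had 156 (151 to 162) in RNA-rich and 141 (135 to 146) in RNA-poor cells, a ratio of 1.11 (1.05 to 1.17). The Cdk4 promoter had 89.5 and 97.3, a ratio of 0.919 (0.860 to 0.983). For the other 11 promoter or distal values of the members the interval of the ratio included 1, with ratios from 0.883 at the Rb1 distal site to 1.09 at the Ccnd1 promoter. Intervals without 1 were found for 9.74% of the 12727 protein-coding promoters with at least 100 fragments and for 10.8% of the 14181 genes with as many distal fragments, so 2 of 13 is near the background. The median ratio was 0.996 over these promoters and 0.986 over these distal values. Of the 444 promoters with at least the Cdk4 count, 14% had such an interval and 3.15% had a ratio as low, Cdk4 included. Of the 257 genes with at least the distal count of Ccnd3, 20.6% had such an interval, and none but Ccnd3 had a ratio as high.

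The rest of the pathway was read from a list of 26 genes. Of their promoters, 25 were open, against 55.6% of all protein-coding promoters, and the median was 1143 fragments. The exception was Cdkn1a, which encodes the inhibitor p21, with 10 fragments at its principal start and 9 distal sites in its window. Only a single start was counted for each gene of the list, so whether another start of Cdkn1a was open was not measured. Cyclins E and A had 2803 (Ccne1), 1384 (Ccne2) and 2281 (Ccna2) fragments, each more than any D cyclin at its main start. Inhibitors of Cdk4 and Cdk6 ran from 276 (Cdkn2a) through 728 (Cdkn2b) and 731 (Cdkn2c) to 4178 (Cdkn2d), the last exceeding Cdk4 itself, and 0.946% of protein-coding promoters held as many. The Cip/Kip inhibitors Cdkn1b and Cdkn1c had 1110 and 1359. The relatives of Rb1, Rbl1 and Rbl2, had 743 and 539, both below Rb1.

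The E2F factors and their partners ran from 448 fragments at E2f2 to 1909 at Tfdp1, with all 10 promoters open. Among the activators, E2f1 had 1580, E2f3 1225 and E2f2 448. Among those that act mostly as repressors, E2f5 had 1331, E2f8 1296, E2f7 1176, E2f4 593 and E2f6 566, so the ranges of both kinds overlapped. E2f2 stood out by its 11 distal sites, more than any other gene of the list. Genes of the kinase that activates Cdk4, Cdk6 and Cdk2 had 725 (Cdk7), 1077 (Ccnh) and 200 (Mnat1), and the phosphatase gene Cdc25a had 1623.

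The protein-coding genes closest to each D cyclin in promoter and distal counts together, by Euclidean distance of log2(count + 1) scaled by SD in this library, were Kbtbd4, Ndufs3 and Uqcr11 for Ccnd1, Gm45713, Mvb12a and Pdpr for Ccnd2, and Igdcc3, Igf1r and Id3 for Ccnd3. Igf1r, for example, held 320 promoter and 5212 distal fragments. Kbtbd4 and Ndufs3 both had 1655 distal fragments.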

How the data were processed

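A single DOGMA-seq preparation gave an ATAC, an RNA and an antibody-tag library, and the ATAC library was used, with no comparison between samples. Cell Ranger ARC (2.0.2; the mm10 reference of 10x Genomics) was used by the authors, who deposited the position of each unique fragment with its count of read pairs (4.50 per fragment here), and counts of fragments and RNA UMIs per barcode, none normalized. Whether ends were shifted for the transposase offset is not given in the sources read. RNA per gene and antibody tags were not used here. Starts came from GENCODE mouse release M21. The main start was the APPRIS principal start, the most upstream where several existed, a rule for ties added to the planned one. Counting used Python 3.11.15, numpy 2.4.6, scipy 1.17.1, pandas 2.3.3 and pyarrow 21.0.0, and was tested on simulated data. Shares and ratios have exact binomial intervals and counts exact Poisson ones. The study's limits on blacklisted regions, nucleosome signal, TSS enrichment and mitochondrial RNA were not applied. Base composition and mappability were not corrected. The named genes are the 7 members, genes with an open promoter in their windows, a pathway list, cell type markers and the 3 genes nearest to each D cyclin. Members and lists were chosen with earlier results of these data known. Of the alternatives, 14 were planned and 3 added after seeing the data.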

Additional observations from a re-analysis of the deposited data

How the results depend on the processing

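The finding that Cdk4, Cdk6, Cdk2 and Rb1 each had a lower distal share than every D cyclin, and that Ccnd3 had the most distal fragments of the D cyclins, held under all 17 alternatives run. None of these alternatives counted every open run at other starts of a gene as promoter. The Ccnd3 to Ccnd1 promoter ratio (0.711) reversed with the coding start that has the most fragments (3.85) and with the downstream principal start of Ccnd3 (2.76), and was 0.504 with fragments under 150 bp. The Ccnd2 to Ccnd1 ratio (2.64) was 4.61 with the coding start that has the most fragments and 3.88 with promoters of 1000 bp either side. The Cdk2 to Ccnd2 ratio (1.16) reversed to 0.731 with that wider promoter and 0.663 with the coding start that has the most fragments, the Rb1 to Ccnd2 ratio (1.14) to 0.793 and 0.653, and the Ccnd1 to Cdk6 ratio (0.749) to 1.55 with short fragments, while it was 0.479 with the wider promoter. The Cdk4 to Cdk6 ratio (5.80) was 13.8 with short fragments and 3.32 with the wider promoter, and the Cdk4 to Ccnd2 ratio (2.93) 1.78 with the wider promoter and 1.70 with the start of most fragments. With starts of every biotype kept out the distal shares of Cdk4 (35.1%) and Cdk2 (22.8%) were 16.5% and 9.90%, with the upper 2% of bins 48.7% and 35.7%, and with sites nearest to their own start 0%. The distal share of Ccnd1 (78.3%) was 80.5% on a grid moved by 250 bp, 83.7% and 67.0% with the upper 2% and the upper 0.5% of bins called open, 75.5% with the wider promoter, 58.5% with distal bins over 2000 bp from a start, 65.5% with starts of every biotype kept out, 82.7% with 100 kb either side and 73.6% with sites nearest to its own start. That of Ccnd2 (67.4%) was 69.7% with cells thinned to 3000 fragments, 65.5% with short fragments, 72.4% and 60.3% at these 2 thresholds, 54.6% with the wider promoter, 54.3% with the start of most fragments, 55.2% with every biotype and 72.3% with starts of the GENCODE basic set. That of Ccnd3 (94.6%) was 96.3% with short fragments, 95.9% and 92.7% at these 2 thresholds, 93.4% with the wider promoter, 76.3% with the start of most fragments, 95.4% with 100 kb, 81.8% with the downstream start and 92.6% with sites nearest to its own start. Site counts of Ccnd1 fell from 4 to 2 with the upper 0.5% and with distal over 2000 bp. Those of Ccnd2 went from 4 to 9 with the upper 2% and 2 with every biotype, and those of Ccnd3 from 12 to 21 with the upper 2%, 5 with the upper 0.5% and 6 with sites nearest to its own start. All cells used also had over 15% of fragments in peaks, so that alternative changed nothing. No paired analysis was possible because there is 1 ATAC library. Counting error at 105 fragments spans 85.9 to 127, which limits calls such as that of 0 distal sites at Cdk6.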

Other observations

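The windows of the members also held open promoters of other genes. In the Cdk2 window, 8.75 kb downstream of the Cdk2 start, the run at the start of Rab5b, which encodes an endosomal GTPase, held 3757 fragments (3638 to 3879) in 63.9% of cells, and the Cdk4 run held 3591 (3475 to 3710), so that these intervals overlap. The remaining runs of that window were at Suox (475), Dgka (270) and Pym1 (737). The Ccnd3 window held runs at Taf8 (1202), at the paired starts of Bysl and Med20 (1639) and at Usp49 (1464), each above the 319 fragments of the run at the upstream Ccnd3 start. The top bin of the Usp49 run, with 1311 fragments, was centred 939 bp from the nearest Usp49 start. That bin adjoins a 544-fragment bin that counted as a distal site of Ccnd3. At Ccnd1 the run at LTO1 held 1171 fragments and that at Fgf15, a growth factor gene, 336, against 364 at Ccnd1 itself. Tigar, beside Ccnd2, held 671 fragments, of which 84.8% (81.9% to 87.4%) were under 150 bp, the highest share of any open run in the 7 windows. The Cdk4 window held Tsfm (437), Mettl1 (727), March9 (559) and Tspan31 (678). Fam133b at Cdk6 (1548) and Rcbtb2 at Rb1 (1715) each held more fragments than the main start run of the member, 779 at Cdk6 and 1465 at Rb1.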
